A study of Mus musculus with 8 samples.

Results

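The genes examined were 9 transcripts of the TH17 type, measured in follicular regulatory T (TFR) cells. They comprised the transcription factor genes Rora and Ahr, the receptor genes Il23r and Ccr6, the membrane protein genes Tmem176a and Tmem176b, and the cytokine genes Il17a, Il17f and Il22. They were chosen by gene symbol as factors, receptors and cytokines of TH17 cells, and all 9 had a row among the 24421 genes counted. Of the 8 libraries 4, called Blimp1-flox 1 to 4 here, came from mice carrying a floxed Blimp1 gene (Prdm1) and Foxp3-cre. The other 4, called WT 1 to 4, came from wild-type (WT) mice. Peanut together with cholera toxin, an adjuvant, had been given by mouth 2 times to every mouse, and spleens were taken 36 days later. CD4+ T cells were isolated with a kit, and cells positive for Foxp3-YFP, CXCR5 and PD1 were sorted by flow cytometry. Foxp3-cre acts in every cell that expresses Foxp3, so deletion is not limited to TFR cells. The labels state neither the age of the mice, nor how many alleles were floxed, nor whether WT mice carried Foxp3-cre. They also leave it unsaid whether libraries came from separate mice, so the p-values measure the spread between these libraries, which may be technical.

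TH17 cells are helper T cells that secrete the cytokines IL-17A, IL-17F and IL-22 and guard mucosal surfaces. Their programme is driven by nuclear receptors of the ROR family, among them ROR alpha, and is stabilised by IL-23, while the ligand-activated factor AHR is needed for IL-22. Regulatory T cells can also express parts of this programme, above all in the gut. Blimp1, encoded by Prdm1, is a transcriptional repressor that marks effector regulatory T cells.

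The sequences upstream of 4 of these genes are shown because they hold the core half-site of ROR proteins, AGGTCA. Each is the 250 bases before the transcription start, from RefSeq on GRCm38.p6, written 5′ to 3′ on the strand of the gene, with capitals marking AGGTCA or its reverse complement TGACCT.
Il23r (chr6:67491856-67492105, - strand): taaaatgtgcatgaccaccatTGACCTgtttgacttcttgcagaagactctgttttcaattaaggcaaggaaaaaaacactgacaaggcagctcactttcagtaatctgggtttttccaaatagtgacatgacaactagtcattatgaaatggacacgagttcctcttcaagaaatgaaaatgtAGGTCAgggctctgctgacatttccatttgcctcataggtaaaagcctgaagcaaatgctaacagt
Ccr6 (chr17:8235793-8236042, + strand): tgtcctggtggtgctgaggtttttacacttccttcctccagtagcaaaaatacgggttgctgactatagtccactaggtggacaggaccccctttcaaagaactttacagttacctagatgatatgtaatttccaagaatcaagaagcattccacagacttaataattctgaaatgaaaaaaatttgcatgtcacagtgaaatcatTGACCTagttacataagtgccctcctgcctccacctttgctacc
Il17a (chr1:20730655-20730904, + strand): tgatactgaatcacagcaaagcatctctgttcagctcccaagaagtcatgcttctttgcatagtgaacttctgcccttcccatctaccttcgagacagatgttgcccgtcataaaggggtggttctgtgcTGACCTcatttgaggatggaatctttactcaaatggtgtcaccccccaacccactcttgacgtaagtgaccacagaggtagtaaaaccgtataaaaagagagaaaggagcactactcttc
Il17f (chr1:20784271-20784520, - strand): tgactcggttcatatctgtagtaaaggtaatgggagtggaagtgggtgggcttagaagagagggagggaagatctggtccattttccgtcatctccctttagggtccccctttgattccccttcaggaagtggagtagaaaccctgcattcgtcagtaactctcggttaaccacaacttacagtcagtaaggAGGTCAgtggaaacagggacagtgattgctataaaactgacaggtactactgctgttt
RefSeq gave such a window for 8 of the 9 genes, all but Ahr, and where a gene had several starts the one nearest to the 5′ end in the count table was used. The half-site stood 229 and 66 bases upstream of the start in Il23r, 44 in Ccr6, 120 in Il17a and 58 in Il17f, counted to its leftmost base. It was in 4 of 8 windows, and in 13.8% of 27018 windows of the same length, 1 for each gene of the reference. The AHR core GCGTG was in 1 of the 8 windows, that of Rora, and in 28.2% of all windows. GAAAG, a core found in BLIMP1 and IRF sites, was in the windows of Il23r, Ccr6, Tmem176a and Il17a, and in 51.4% of all windows. All 3 motifs were searched on both strands, and no 2 matches overlapped in these windows. A match is a description of the letters only, and binding was not measured.

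Tmem176a and Tmem176b are transcribed away from each other on chromosome 6. The stretch between their starts is shown because the levels of both genes followed each other across libraries. It spans 108 bases with a GC content of 63.9%, holds no AGGTCA and is written on the + strand.
Tmem176b-Tmem176a interval (chr6:48841375-48841482, + strand): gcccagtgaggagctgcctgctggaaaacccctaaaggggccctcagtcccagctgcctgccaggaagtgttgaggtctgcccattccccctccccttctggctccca

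Library totals ran from 16425538 to 27595939 counts. The targeted gene came first among the checks. Prdm1 had 13.4, 7.53, 9.60 and 16.6 CPM (counts scaled to the library total, adjusted by TMM) in Blimp1-flox 1 to 4, against 39.1, 31.8, 65.1 and 71.0 CPM in WT 1 to 4. It fell 4.41-fold in Blimp1-flox cells (edgeR quasi-likelihood test, Benjamini-Hochberg adjusted p = 0.0203), a call lost without Blimp1-flox 1 (adjusted p = 0.103) and with all genes kept whatever their counts. The labels do not say which exons were floxed, so reads outside them can remain. Of the sorted phenotype, Cd4 had 1070 to 1352 CPM in Blimp1-flox and 1135 to 1278 CPM in WT libraries, and Cxcr5 had 475 to 568 CPM in Blimp1-flox and 391 to 506 CPM in WT libraries. Pdcd1, which encodes PD1, varied more, with 776 to 1477 CPM in Blimp1-flox and 774 to 1180 CPM in WT libraries. The sum of 8 TFR genes was 5577 to 6620 CPM in Blimp1-flox and 5254 to 6495 CPM in WT libraries (exact permutation p = 0.743). Abundant genes such as Cd4 and Pdcd1 weigh far more in this sum than Foxp3. Foxp3 had 55.7 to 75.5 CPM in Blimp1-flox and 72.5 to 105 CPM in WT libraries, and its exons overlap other genes. A principal component analysis of log2 CPM set WT 4 apart at -51.8 on the first component, with the other WT libraries at -19.7 to -1.77, and Blimp1-flox 3 at -50.8 on the second. Results are therefore also given without these libraries.

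Il23r and Ccr6, the receptors of the set, rose in Blimp1-flox TFR cells. Of the 9 genes, 6 had enough counts for the test across all genes, and 2 of those 6 rose, none fell and 4 did not pass. Over all 12363 genes tested 0.259% rose and 0.243% fell. The 3 cytokine genes were too low for that test. On the log2 scale the median fold change of the 6 tested genes was 1.14, against 0.0012 over all genes tested, and 5 of the 6 were positive. The groups did not overlap for Il23r and Ccr6, and 3.75% of all genes tested were higher, and 4.72% lower, in every Blimp1-flox library than in every WT library.

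**Figure D1:**
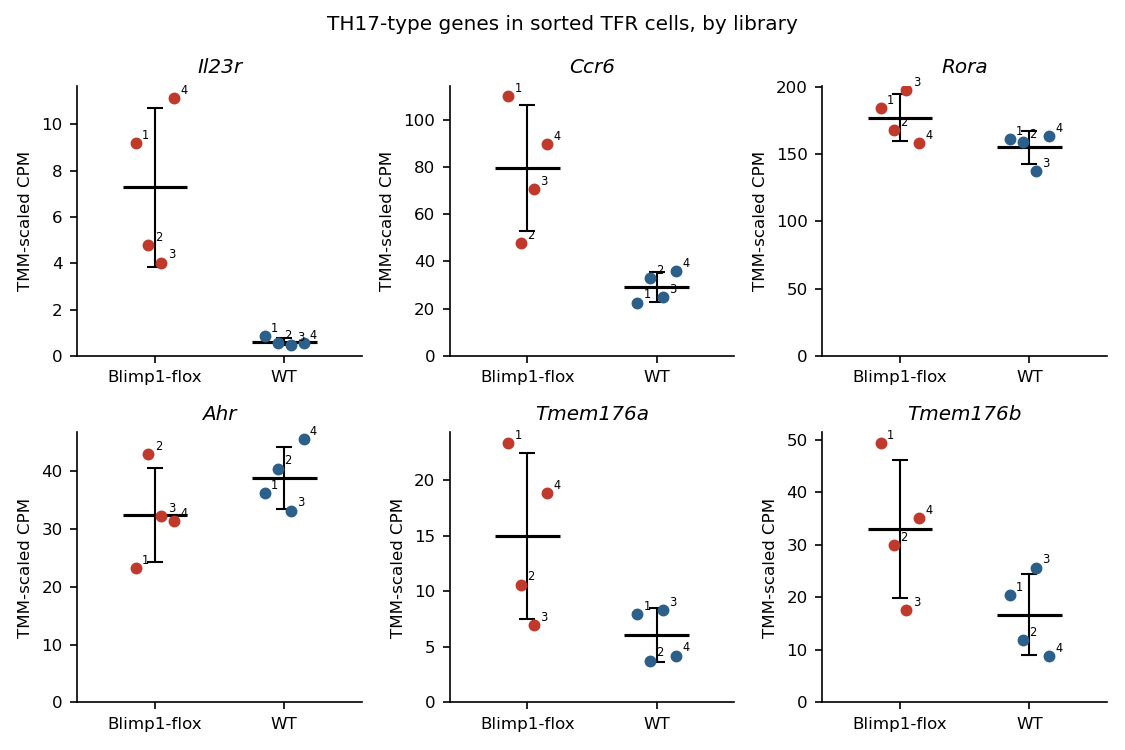
Level of the 6 tested TH17-type genes in each library, as TMM-scaled CPM on linear axes that start at 0. Points are libraries numbered by replicate, with Blimp1-flox on the left and WT on the right, and lines with bars give the mean and SD of 4 libraries. Il23r (4.03 to 11.1 CPM in Blimp1-flox, 0.483 to 0.848 CPM in WT) and Ccr6 (47.9 to 110 CPM in Blimp1-flox, 22.6 to 35.9 CPM in WT) do not overlap between the groups.

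Il23r encodes the chain that gives the IL-23 receptor its specificity. It lies on chromosome 6 from 67422932 to 67491855 (mm10). It had 9.18, 4.78, 4.03 and 11.1 CPM in Blimp1-flox 1 to 4, against 0.848, 0.562, 0.483 and 0.560 CPM in WT 1 to 4. Every Blimp1-flox library stood far above every WT library, and Blimp1-flox 1 and 4 stood above Blimp1-flox 2 and 3. These levels rest on 112 to 261 counts in Blimp1-flox libraries and on 11 to 21 counts in WT libraries, so the level in WT is the less precise. The log2 fold change was 3.55 ± 0.39 (SE; edgeR adjusted p = 0.00112). It ran from 3.27 to 3.83 over 17 alternatives and passed in all of them, with adjusted p up to 0.00934. Those alternatives called 0.16% to 4.09% of all their genes in either direction, with 0.501% under RLE scaling and library totals, 0.518% under upper-quartile scaling, 0.558% with the stricter filter, 0.421% with a replicate block and 4.09% in limma-voom. Without WT 4 and Blimp1-flox 3, where 1.27% of genes were called, it was 3.71 (adjusted p = 0.000948), and 1.47% were called at an adjusted p under 0.10.

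The partner chain of Il23r did not follow it. Il12rb1, which the IL-23 receptor shares with the IL-12 receptor, had 50.2 to 57.5 CPM in Blimp1-flox libraries and 50.8 to 70.6 CPM in WT libraries. Its log2 fold change of -0.23 ± 0.11 (SE) did not pass (edgeR adjusted p = 0.324). Scaled by exon length, Il12rb1 exceeded Il23r by a factor of 7.47 ± 3.32 in Blimp1-flox libraries and 94.3 ± 29.7 in WT libraries (SD, n = 4 each).

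Ccr6, the receptor of the chemokine CCL20, guides TH17 cells, regulatory T cells and B cells to mucosal sites. It lies on chromosome 17 from 8236043 to 8257129 (mm10). It had 110, 47.9, 70.6 and 89.9 CPM in Blimp1-flox 1 to 4, against 22.6, 33.0, 24.8 and 35.9 CPM in WT 1 to 4. The lowest Blimp1-flox library, number 2, stood above the highest WT library, number 4. The log2 fold change was 1.45 ± 0.24 (SE; edgeR adjusted p = 0.0334), a 2.73-fold rise. Its log2 fold change held between 1.26 and 1.63 over 17 alternatives, but the call was lost in 4 of the 8 fits that leave out 1 library. These were the fits without WT 2 (adjusted p = 0.106), WT 3 (0.0840), Blimp1-flox 1 (0.0859) and Blimp1-flox 4 (0.109). In these 4 fits, in the order just given, 0.215%, 0.342%, 0.16% and 0.183% of all genes were called in either direction. The 4 fits that kept the call, those without Blimp1-flox 2, Blimp1-flox 3, WT 1 and WT 4, called 0.359%, 0.751%, 1.01% and 0.616% of all genes. Keeping genes of any count also ended the call of Ccr6 (adjusted p = 0.0604). Without WT 4 and Blimp1-flox 3 the log2 fold change was 1.62 (adjusted p = 0.0202).

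B cells also express Ccr6, so B cell transcripts were set beside it. The summed level of 10 B cell genes ran from 205 to 274 CPM in Blimp1-flox libraries and from 230 to 757 CPM in WT libraries, with the highest sum in WT 4. Of these 10 genes 5 were lower in every Blimp1-flox library and none was higher, and none passed the test singly. Over all genes tested the shares without overlap were 4.72% lower and 3.75% higher. Cd79a, a chain of the B cell receptor, had 2.51 to 4.57 CPM in Blimp1-flox libraries and 8.73 to 122 CPM in WT libraries.

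The transcription factor genes Rora and Ahr did not pass the test in either direction. Rora encodes ROR alpha, lies on chromosome 9 from 68653786 to 69388246, and had 184, 168, 198 and 158 CPM in Blimp1-flox 1 to 4, against 161, 159, 137 and 163 CPM in WT 1 to 4. Of the Blimp1-flox libraries 3 stood above all WT libraries, and Blimp1-flox 4 stood among them. The log2 fold change of Rora was 0.19 ± 0.10 (SE), with an interval of 1.96 SE from -0.0025 to 0.38, and it did not pass (edgeR adjusted p = 0.361; 0.292 to 0.587 over 17 alternatives). A rise of more than about 0.38 on the log2 scale lies outside that interval, so Rora did not share the size of change of Il23r or Ccr6.

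Ahr encodes the aryl hydrocarbon receptor and lies on chromosome 12 from 35497979 to 35534989. It had 23.2, 43.1, 32.3 and 31.4 CPM in Blimp1-flox 1 to 4, against 36.2, 40.5, 33.2 and 45.6 CPM in WT 1 to 4. Of the Blimp1-flox libraries 3 stood below all WT libraries, and Blimp1-flox 2 stood within their range. The log2 fold change was -0.26 ± 0.17 (SE; interval -0.59 to 0.074) and did not pass (edgeR adjusted p = 0.472; 0.204 to 0.776 over 17 alternatives). In the GENCODE annotation, exons of Rora and of Ahr each overlap a gene model on the opposite strand, and the strand setting of the counting is unknown.

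Tmem176a and Tmem176b encode related four-span membrane proteins, described in TH17 cells and in dendritic cells. Tmem176a lies on chromosome 6 from 48841483 to 48845364. It had 23.3, 10.6, 6.98 and 18.8 CPM in Blimp1-flox 1 to 4, against 7.95, 3.76, 8.34 and 4.22 CPM in WT 1 to 4. Tmem176b, its neighbour from 48833811 to 48841374, had 49.3, 30.0, 17.6 and 35.1 CPM in Blimp1-flox 1 to 4, against 20.5, 11.8, 25.6 and 8.88 CPM in WT 1 to 4. For both genes 3 Blimp1-flox libraries stood above all WT libraries and Blimp1-flox 3 stood within the WT range. The log2 fold change was 1.29 ± 0.39 (SE; edgeR adjusted p = 0.171) for Tmem176a and 0.98 ± 0.38 (SE; edgeR adjusted p = 0.261) for Tmem176b, so neither passed. DESeq2, which called 3.24% of its genes, called Tmem176a (1.30, adjusted p = 0.0102) and not Tmem176b (0.98, adjusted p = 0.222). Without WT 4 and Blimp1-flox 3 the log2 fold changes were 1.39 (adjusted p = 0.0710) for Tmem176a and 0.98 (adjusted p = 0.115) for Tmem176b.

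Both genes moved together from library to library. The root mean square distance between their log2 CPM profiles, each centred over the 8 libraries, was 0.254. By this distance Tmem176b ranked 2 among the 12362 other tested genes in likeness to Tmem176a, and Tmem176a ranked 5 in likeness to Tmem176b. Scaled by exon length, Tmem176b exceeded Tmem176a by a factor of 1.27 ± 0.233 in Blimp1-flox libraries and 1.49 ± 0.265 in WT libraries (SD, n = 4 each; exact two-sided permutation p = 0.286). In GENCODE their exons overlap on opposite strands, although those of the count table do not, so reads there cannot be assigned with certainty.

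**Figure D2:**
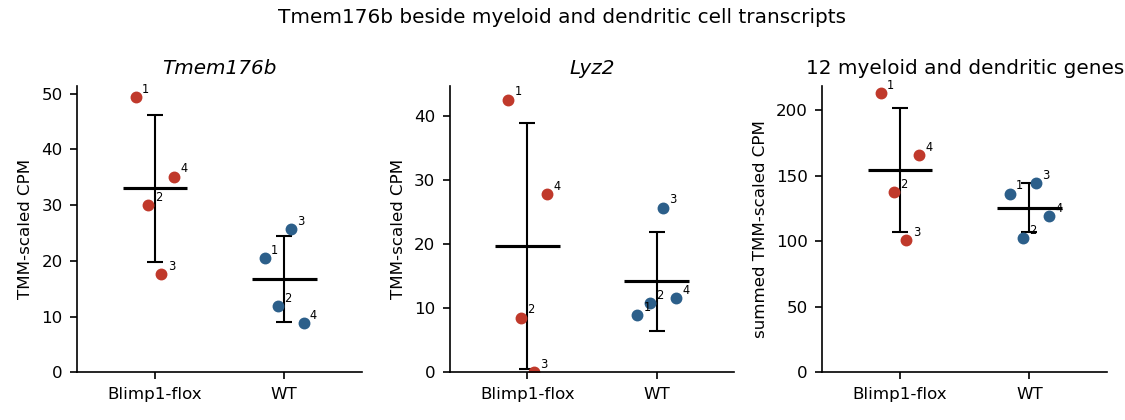
Tmem176b beside Lyz2, a lysozyme gene of myeloid cells, and the sum of 12 myeloid and dendritic cell genes, as TMM-scaled CPM per library on axes that start at 0, with the mean and SD of 4 libraries. Blimp1-flox, on the left, runs in the order 1, 4, 2, 3 from high to low in all 3 panels, and the sum spans 101 to 213 CPM in Blimp1-flox and 103 to 144 CPM in WT.

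The summed transcripts of myeloid and dendritic cells varied in the same order as both genes across the Blimp1-flox libraries. Across the WT libraries the sum had the order of Tmem176a, with WT 3, 1, 4 and 2 from high to low. Tmem176b differed from it there only in that WT 4 was lower than WT 2. Among single genes of the sum, Lyz2, Cst3 and Tyrobp had the order of the sum in Blimp1-flox, whereas Cd68, Itgam, Fcer1g and Xcr1 did not. Cd68 had 27.5, 17.5, 22.1 and 21.4 CPM in Blimp1-flox 1 to 4. The order was not limited to myeloid genes, since Pdcd1, the gene of the sorted marker PD1, had it too. Pdcd1 stood at 1477, 1166, 776 and 1457 CPM in Blimp1-flox 1 to 4. The sum of 12 such genes was 213, 137, 101 and 166 CPM in Blimp1-flox 1 to 4, against 136, 103, 144 and 119 CPM in WT 1 to 4 (exact two-sided permutation p = 0.343). Lyz2 had 42.6, 8.57, 0 and 27.8 CPM in Blimp1-flox 1 to 4, against 8.96, 10.8, 25.7 and 11.6 CPM in WT 1 to 4. Of the 12 genes Cd68 alone did not overlap between the groups (17.5 to 27.5 CPM in Blimp1-flox, 11.1 to 16.7 CPM in WT), and none passed the test. Over all genes tested 3.75% were higher without overlap and 4.72% lower. None of the 12 was at 0 in all 8 libraries, while the dendritic cell marker Clec9a had no more than 0.128 CPM in any. In RNA from a sorted pool, fewer cells of a type and less RNA per cell cannot be told apart. The part of these transcripts in the levels of Tmem176a and Tmem176b was not tested.

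The cytokine genes were near the limit of detection, and almost all of their counts lay in Blimp1-flox libraries. Il22, on chromosome 10 from 118204964 to 118210046, encodes the epithelial barrier cytokine IL-22. It had 33, 8, 17 and 56 counts in Blimp1-flox 1 to 4, against 4, 1, 0 and 4 counts in WT 1 to 4. The groups did not overlap, with 0.333 to 2.39 CPM in Blimp1-flox and 0 to 0.161 CPM in WT libraries, and the exact two-sided permutation p was 0.0286, the smallest that the 70 assignments of 8 libraries can give. Pooled by library totals, the level was 1.24 CPM in Blimp1-flox (95% exact Poisson interval 1.03 to 1.49) and 0.0922 CPM in WT (0.0422 to 0.175). These pooled levels stood in a ratio of 13.5 (95% counting interval 6.86 to 30.2), and of 9.22 without Blimp1-flox 4. In edgeR with no filter on low counts, where 0.529% of genes were called, Il22 rose by 3.80 ± 0.83 (log2, SE; adjusted p = 0.0419). DESeq2 gave 3.88 ± 0.88 (SE; adjusted p = 0.00137). Once a library was left out, Il22 passed the filter in 5 of the fits, with adjusted p from 0.0517 to 0.184.

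Il17a and Il17f, which encode the signature cytokines IL-17A and IL-17F, lie side by side on chromosome 1. Il17a, from 20730905 to 20734496, had 3, 4, 0 and 12 counts in Blimp1-flox 1 to 4, against 0, 0, 0 and 1 counts in WT 1 to 4. Its pooled ratio was 20.2 (95% counting interval 3.21 to 840), and 10.01 without Blimp1-flox 4, which held 12 of the 19 Blimp1-flox counts. Without WT 4, which held its single WT count, its pooled level in Blimp1-flox was 4.92 times that of 3 counts over the other 3 WT libraries. This ratio is no lower bound, since it leaves out the counting error of the 19 Blimp1-flox counts. Il17f, from 20777146 to 20784270, had 9, 6, 0 and 4 counts in Blimp1-flox 1 to 4 and none in WT 1 to 4. Its pooled level in Blimp1-flox was 6.74 times that of 3 counts, the number taken as what 0 of 97601870 WT counts allow. Those 3 counts amount to 0.0307 CPM by library totals. The 19 Blimp1-flox counts gave 0.207 CPM (95% exact Poisson interval 0.125 to 0.323). The ratio leaves out this counting error, so it is no lower bound either. Without Blimp1-flox 1, which held 9 of the 19 counts, the ratio was 4.32. Blimp1-flox 3 held no count of either gene, so it could not be told from WT at this depth. The exact two-sided permutation p was 0.143 for each gene. Without any filter neither passed in edgeR (log2 fold change 3.84, adjusted p = 0.262 for Il17a, and 5.51, adjusted p = 0.179 for Il17f). The counting intervals and limits leave out the spread between libraries.

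**Figure D3:**
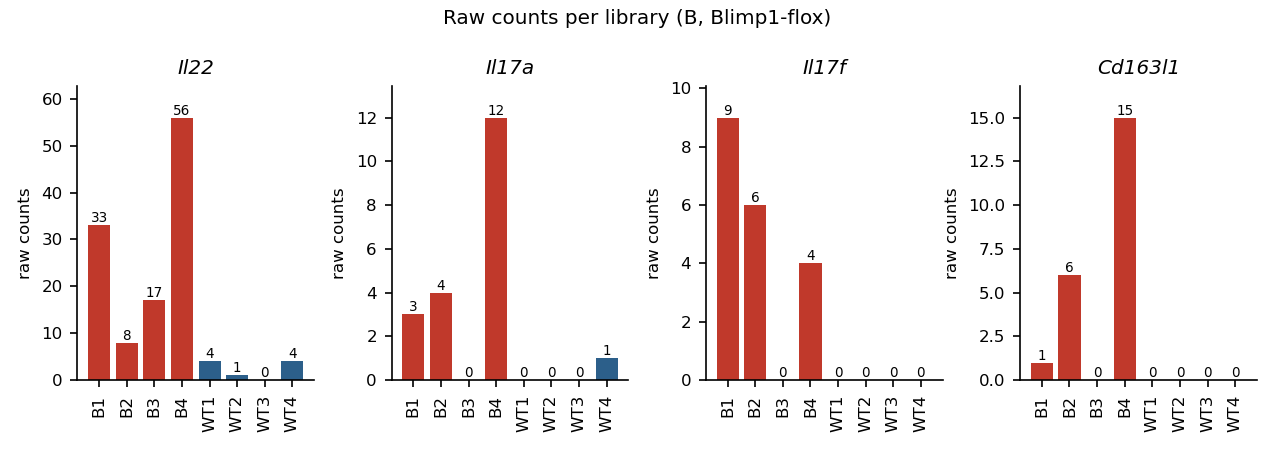
Raw counts of Il22, Il17a, Il17f and the gamma delta T cell marker gene Cd163l1 in each library, on linear axes that start at 0, with Blimp1-flox libraries (B1 to B4) left of WT libraries. Il22 has counts in all 4 Blimp1-flox libraries and at most 4 in a WT library, while Il17a, Il17f and Cd163l1 have none in Blimp1-flox 3.

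Transcripts of other cells that make these cytokines were also counted. Cd163l1, a scavenger receptor gene of IL-17-producing gamma delta T cells, had 1, 6, 0 and 15 counts in Blimp1-flox 1 to 4 and none in WT 1 to 4. Like Il17a it was highest in Blimp1-flox 4 and at 0 in Blimp1-flox 3. Il17f was also at 0 in Blimp1-flox 3 but highest in Blimp1-flox 1, with 9 counts. Il22 was also highest in Blimp1-flox 4 but had 33 counts in Blimp1-flox 1 and 17 in Blimp1-flox 3. Sox13, a transcription factor gene of gamma delta T cells, had 0, 1, 0 and 3 counts in Blimp1-flox 1 to 4 and 1, 0, 0 and 0 in WT 1 to 4. Only these 2 of 6 listed gamma delta T cell genes had a row among the genes counted. The rest, among them the receptor genes Trdc and Tcrg-C1, had none under these symbols. Cd163l1 and Sox13 summed to 0 to 0.767 CPM in Blimp1-flox and 0 to 0.0404 CPM in WT libraries (exact permutation p = 0.143). The sum of 8 genes of innate lymphoid cells, several of them shared with T cells, was 482 to 581 CPM in Blimp1-flox and 527 to 692 CPM in WT libraries (exact permutation p = 0.0857). Kit, a receptor gene of innate lymphoid and mast cells, was higher in every Blimp1-flox library, with 4.32, 2.00, 2.37 and 3.66 CPM in Blimp1-flox 1 to 4, against 1.33, 1.73, 1.40 and 0.485 CPM in WT 1 to 4 (edgeR adjusted p = 0.176), and like Il22 it was highest in Blimp1-flox 1 and 4. Tbx21, a transcription factor gene shared with TH1 cells, was lower in every Blimp1-flox library, with 9.67 to 15.5 CPM in Blimp1-flox and 15.6 to 25.7 CPM in WT libraries (edgeR adjusted p = 0.153). The NK and innate lymphoid cell gene Ncr1 had no count in Blimp1-flox libraries and at most 3 in a WT library. The part of such cells in the cytokine counts was not tested. The sums of 6 CD8 T and NK cell genes were 49.4 to 54.1 CPM in Blimp1-flox and 36.3 to 50.2 CPM in WT libraries. Those of 10 exocrine pancreas genes were 51.7 to 94.3 CPM in Blimp1-flox and 33.1 to 60.2 CPM in WT libraries (exact permutation p = 0.0571 for each). Within the CD8 T and NK sum, Klrb1c had 30.7 to 37.4 CPM in Blimp1-flox and 13.5 to 26.6 CPM in WT libraries. Cd8a went the other way, with 0, 1, 0 and 0 counts in Blimp1-flox 1 to 4 and 1, 7, 8 and 5 in WT 1 to 4. Klre1 had no count in any library.

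The levels of the 9 genes can be ordered after scaling by exon length. In Blimp1-flox libraries Ccr6 led with 38.3 ± 12.8 CPM per kilobase, followed by Tmem176b (16.1), Rora (14.4), Tmem176a (13.3), Ahr (5.92), Il23r (2.93), Il22 (1.23), Il17f (0.205) and Il17a (0.184). Each gene's range over the 4 Blimp1-flox libraries overlapped that of the next in this order. In WT libraries the order on the same scale was Ccr6 (14.0 ± 3.07), Rora (12.6), Tmem176b (8.15), Ahr (7.08), Tmem176a (5.42), Il23r (0.246), Il22 (0.0814), Il17a (0.00797) and Il17f (0). The WT ranges of Tmem176a and Il23r, and those of Il23r and Il22, did not overlap, whereas those of all other neighbours did. In WT libraries the range of Il23r lay below those of all 5 genes above it, and in Blimp1-flox libraries it overlapped that of Ahr and lay below those of the other 4.

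Within the Blimp1-flox group the same libraries tended to be high. Blimp1-flox 1 and 4 held the 2 highest levels of 6 of the 9 genes, namely Il23r, Ccr6, Tmem176a, Tmem176b, Il17a and Il22. For Il17a this place rests on 3 counts in Blimp1-flox 1 (0.182 CPM) against 4 counts in Blimp1-flox 2 (0.166 CPM). Blimp1-flox 1 and 4 also had the highest values on the first principal component of all libraries. The share of all tested genes with this order was not counted. Whether the order is particular to these genes, or to others named here with it, was therefore not tested. Rora was highest in Blimp1-flox 3, Ahr in Blimp1-flox 2 and Il17f in Blimp1-flox 1. Prdm1 was also higher in Blimp1-flox 1 and 4 (13.4 and 16.6 CPM) than in Blimp1-flox 2 and 3 (7.53 and 9.60 CPM). The spread within the group was wide for several genes, with a coefficient of variation of 47.1% for Il23r, 33.4% for Ccr6 and 39.8% for Tmem176b, against 9.92% for Rora.

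Il23r and Ccr6 were also compared with other genes by the distance between centred log2 CPM profiles over 8 libraries, among 10083 genes outside the lists. The distance includes the difference between the genotypes. Similar fold changes of the closest genes therefore follow from the choice itself and are not independent support. Closest to Il23r was Stom, which encodes the membrane protein stomatin, at a distance of 0.242, and then Pcsk1, a prohormone convertase gene (0.558), and Aqp3, a water and glycerol channel gene (0.571). The log2 fold changes of these genes were 3.03 for Stom, 2.98 for Pcsk1 and 2.98 for Aqp3. Closest to Ccr6 were Klrb1f, a C-type lectin receptor gene (distance 0.239), Smtn, the smoothelin gene (0.316), and Gpr15, a homing receptor gene of the large intestine (0.337). Smtn rose 1.05 ± 0.16 and Gpr15 1.56 ± 0.25 on the log2 scale (SE; edgeR adjusted p = 0.0124 and 0.0203), while Klrb1f, at 1.47 ± 0.38, did not pass (edgeR adjusted p = 0.106).

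**Figure D4:**
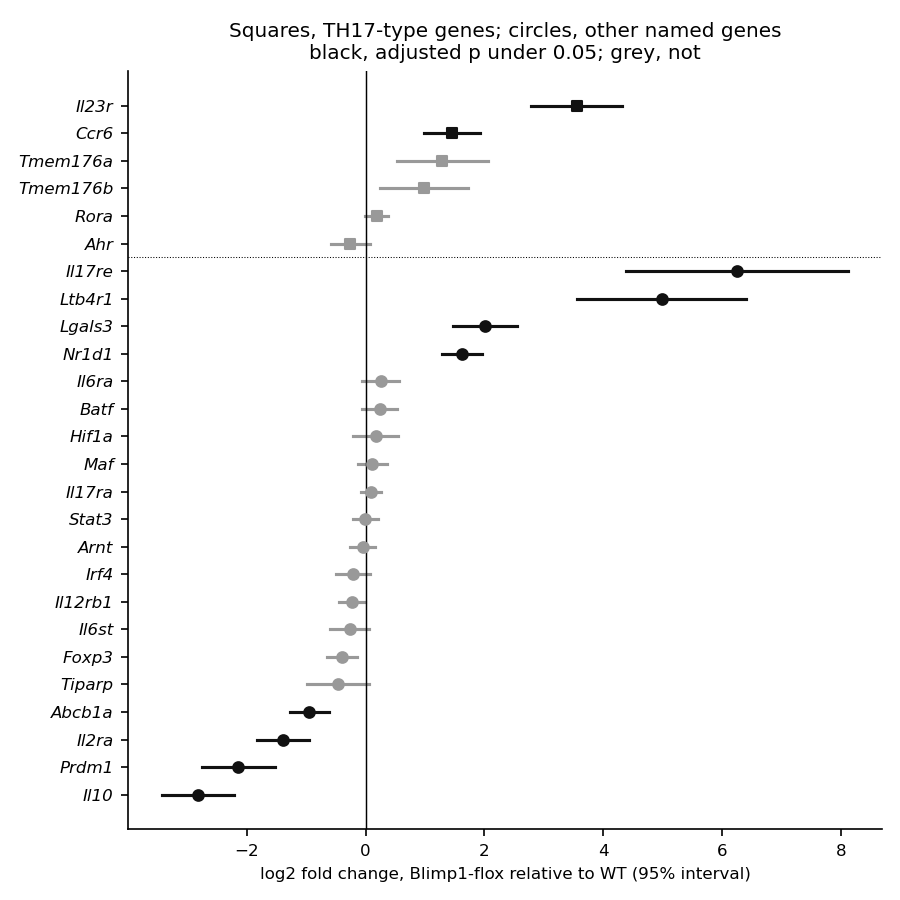
Log2 fold change of Blimp1-flox relative to WT for the 6 tested TH17-type genes (squares) and other named genes (circles), with lines of 1.96 SE to each side, black where the adjusted p was under 0.05 and grey where not. Il23r (3.55) and Ccr6 (1.45) are the black squares, and the regulators Stat3, Batf, Irf4, Maf and Hif1a lie between -0.22 and 0.23.

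Other genes of the TH17 programme were read from lists by role. Of 15 transcription factors and cofactors tested none passed, and the median log2 fold change was -0.10. The members were not all flat, since their log2 fold changes ran from -0.50 to 2.78, with a smallest edgeR adjusted p of 0.0521. The members named here were fixed by rule whatever their result and do not stand for the whole list. STAT3, which transmits IL-6 and IL-23 signals, BATF and IRF4, the pioneer pair of TH17 loci, c-MAF and the hypoxia factor HIF1A belong to this list. Stat3 had 543 ± 44.9 CPM in Blimp1-flox and 545 ± 67.1 CPM in WT libraries (SD, n = 4 each), a log2 fold change of -0.0045. The log2 fold changes of Batf, Irf4, Maf and Hif1a were 0.23, -0.22, 0.11 and 0.17, with edgeR adjusted p from 0.465 to 0.702.

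Of 11 receptors and kinases that induce the programme none passed, and the median was -0.15. The IL-6 receptor genes Il6ra and Il6st stood at 0.25 ± 0.16 and -0.27 ± 0.17 (log2 fold change, SE; edgeR adjusted p = 0.456 and 0.451). Of 6 IL-17 and IL-22 receptor and signalling genes none passed either, among them Il17ra, the common IL-17 receptor chain, at 0.088 ± 0.085 (SE; edgeR adjusted p = 0.643). Of 8 AHR pathway genes tested none passed, with a median of 0.010. Arnt, the partner of AHR, was at -0.047 and Tiparp, a target of AHR, at -0.47 (edgeR adjusted p = 0.863 and 0.421).

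Of 15 surface and effector-associated genes tested, 3 rose, 1 fell and 11 did not pass, with a median log2 fold change of 0.40. Il17re, the receptor chain for IL-17C, had 103, 23, 54 and 120 counts in Blimp1-flox 1 to 4, against 0, 0, 4 and 0 counts in WT 1 to 4. The groups did not overlap and the counts of WT lay in a single library, WT 3. Its pooled ratio was 79.8 (95% counting interval 30.8 to 295; log2 fold change 6.25 ± 0.95 SE, edgeR adjusted p = 0.0150). Leaving out WT 2, Blimp1-flox 1 or Blimp1-flox 4 ended the call (adjusted p at most 0.0754). Ltb4r1, the leukotriene B4 receptor gene, had 13.3, 3.08, 1.87 and 12.1 CPM in Blimp1-flox 1 to 4 and 0.0878 to 0.336 CPM in WT libraries, again highest in Blimp1-flox 1 and 4. Ltb4r1 rose by 4.98 ± 0.73 on the log2 scale (SE; edgeR adjusted p = 0.0162), which no longer passed when WT 2 or WT 3 was left out (at most 0.104). Both Il17re and Ltb4r1 entered the test only through the Blimp1-flox libraries, as no WT library held 10 counts of either. With the stricter filter Il17re was not tested. Lgals3, the galectin-3 gene, rose 4.01-fold to 20.9 ± 7.10 CPM in Blimp1-flox, against 5.19 ± 1.40 CPM in WT (SD, n = 4 each; edgeR adjusted p = 0.00820). Abcb1a, the drug efflux transporter gene MDR1, was the member that fell, with 50.2 to 76.4 CPM in Blimp1-flox and 96.5 to 147 CPM in WT libraries (1.93-fold, edgeR adjusted p = 0.0337). Leaving out WT 2 or any of Blimp1-flox 1, 2 and 4 ended this call (adjusted p at most 0.146), and an exon overlaps an antisense gene model in GENCODE.

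Of 10 genes listed as ROR alpha targets and clock partners, 1 rose, none fell and 9 did not pass. The riser was Nr1d1, which encodes REV-ERB alpha, a repressor at ROR elements, with 17.2, 13.7, 13.6 and 16.2 CPM in Blimp1-flox 1 to 4, against 5.17, 4.15, 5.36 and 5.04 CPM in WT 1 to 4. It rose 3.07-fold (edgeR adjusted p = 0.00112), and its exons overlap those of Thra on the opposite strand in GENCODE, so a share of its reads is uncertain. Of 4 other cytokine genes tested, 1 fell, Il10, and 3 did not pass. Il10 had 6.43 to 17.9 CPM in Blimp1-flox and 63.6 to 98.6 CPM in WT libraries (log2 fold change -2.82 ± 0.31 SE, edgeR adjusted p = 0.00502). Of 14 restraints on the TH17 programme, 2 fell, Prdm1 itself and Il2ra, and 12 did not pass. Il2ra, a chain of the IL-2 receptor, whose signals oppose TH17 differentiation, had 28.1 to 55.4 CPM in Blimp1-flox and 81.3 to 121 CPM in WT libraries (edgeR adjusted p = 0.0311). The same 4 omissions ended the call of Il2ra (adjusted p at most 0.105). Foxp3 had a log2 fold change of -0.40 ± 0.13 (SE) and did not pass (edgeR adjusted p = 0.176). Its log2 fold change stayed negative over 17 alternatives, from -0.55 to -0.29. Limma-voom with quality weights, which called 4.09% of all genes, called Foxp3 lower (adjusted p = 0.0356), and no other alternative did. Over all these lists together, 83 genes were tested, of which 4 rose, 4 fell and 75 did not pass, against 0.501% of all tested genes called in either direction. The genes that fell include Prdm1, the targeted gene. The lists were chosen with earlier results of these data known, so this difference is not independent support.

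**Figure D5:**
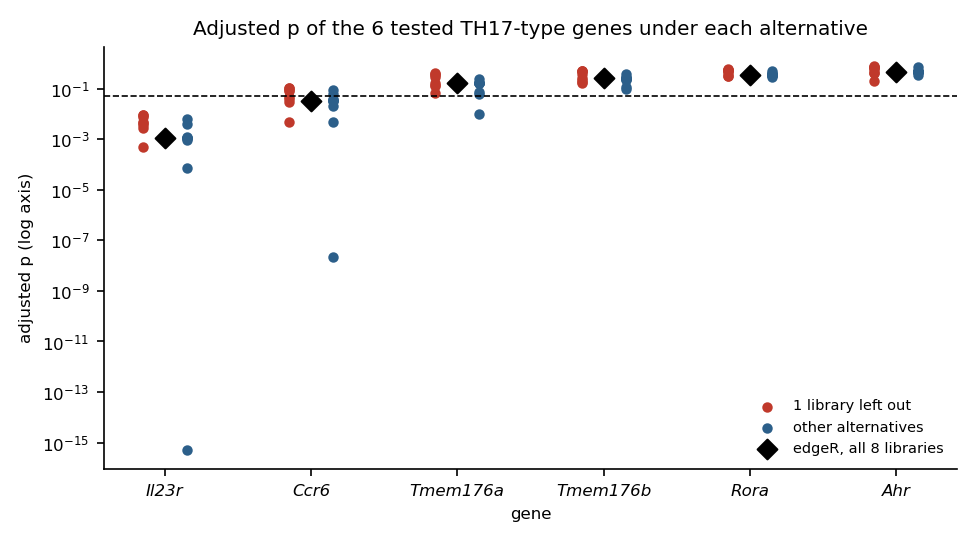
Adjusted p of the 6 tested TH17-type genes on a log axis, for edgeR with all 8 libraries (black diamonds), with 1 library left out (red) and under the other alternatives (blue), with a dashed line at 0.05. Il23r lies below the line in all 17 alternatives, Ccr6 in 11, Tmem176a in 1, and Tmem176b, Rora and Ahr in none.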

How the data were processed

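Per the labels, libraries of sorted TFR cells were made from extracted RNA with the KAPA mRNA HyperPrep kit. The submitters' processing notes name STAR 2.5.2b, the mm10 build and, for counting, featureCounts from Subread 1.5.1. What the authors deposited is one table of unnormalized counts. The deposited file also gives exon length in bases, another kind of value, used here only to scale levels per kilobase. The notes do not name the annotation or strand setting.

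Genes were kept with filterByExpr (minimum count 10) and scaled by TMM. In R 4.3.3, edgeR 4.0.16 fitted a robust quasi-likelihood model and its F test, on genotype alone over all 8 libraries, adjusted over all 12363 tested genes and called under 0.05. SE was derived from the F statistic. CPM was computed here from the deposited counts, and log2 CPM used a prior count of 2. Exact permutation tests used scipy 1.17.1, and alternatives used DESeq2 1.42.0 and limma 3.58.1. The gene test was checked on simulated counts.

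The members and lists were chosen with earlier results of these data known, so they are not independent support. Named genes were all 9 members, Prdm1, 12 others whatever their result, up to 4 called members of each list and the 3 genes most like Il23r and Ccr6. The values of some list members are not reported here. Replicate libraries differed by far more than counting noise.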

Additional observations from a re-analysis of the deposited data

Results flagged for a closer look

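Among 17 groups of 4 libraries (the 9 genes in each genotype, leaving out Il17f in WT, where all were at 0), 2 had a library far from the other 3. Chance alone flags about 1 group in 20. Rora in WT 3, at 137 CPM, lay well below the other WT libraries. Il17a in WT 4, at 0.0373 CPM, was the single WT library with a count of this gene, and that count was 1.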

How the results depend on the processing

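Directions held under every alternative for the 6 tested genes and the 3 cytokine genes. The number of TH17-type genes that rose was 2 under all scalings, both filters other than none, limma-voom and the looser threshold, and 1 to 2 with 1 library left out. It was 4 in DESeq2 (Il23r, Ccr6, Tmem176a and Il22). With no filter it was 2, Il23r and Il22, since Ccr6 was lost. Among all tested genes 62 were called, against 447 in DESeq2, 506 in limma-voom with quality weights, 157 without WT 4 and Blimp1-flox 3, 182 at an adjusted p under 0.10, and 20 (without Blimp1-flox 1) to 127 (without WT 1) with 1 library left out. The cause of these shifts was not tested.

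The mean difference of Il22 was 1.25 CPM, 0.895 to 1.58 CPM with 1 library left out, and 1.51 CPM without WT 4 and Blimp1-flox 3. In those designs the exact p cannot fall below 0.0571 or 0.1. The CD8 T and NK sum differed by 10.3 CPM (exact permutation p = 0.0571), and by 10.5 CPM with library totals alone (p = 0.0286). Within this sum Klrb1c alone had a mean of 33.9 CPM in Blimp1-flox and 20.9 CPM in WT libraries.

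Replicate numbers are shared between the genotypes, but the deviations of same-numbered libraries correlated at 0.10, 0.153, -0.102 and -0.108, and only Blimp1-flox 1 and 2 were closest to their own number. With a replicate block 52 genes were called and 1 TH17-type gene, Il23r (Ccr6 adjusted p = 0.0887). With pairs the Il22 difference of 1.25 CPM had an exact p of 0.125, the smallest that 4 pairs allow. Depth limits Il17a and Il17f, which rest on 19 counts each in Blimp1-flox and on 1 and 0 counts in WT libraries.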

Other observations

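A few genes of the lists did not pass the test and yet did not overlap between the groups. They were chosen after their values were seen, from a larger number of such genes. Il1r1, the IL-1 receptor gene, had 15.2, 12.3, 17.5 and 30.9 CPM in Blimp1-flox 1 to 4, against 8.88, 10.1, 9.44 and 3.32 CPM in WT 1 to 4 (log2 fold change 1.26 ± 0.36 SE, edgeR adjusted p = 0.158). Il18r1, the IL-18 receptor gene, had 7.01 to 13.1 CPM in Blimp1-flox and 2.42 to 5.34 CPM in WT libraries (edgeR adjusted p = 0.0579). S100a4, a calcium-binding protein gene, had 37.0 to 98.1 CPM in Blimp1-flox and 24.0 to 34.0 CPM in WT libraries (edgeR adjusted p = 0.0820). Like Il23r, S100a4 and Il18r1 were highest in Blimp1-flox 1 and 4. Smad3, a transducer of TGF-beta signals, was lower, with 71.3 to 91.6 CPM in Blimp1-flox and 98.2 to 129 CPM in WT libraries (edgeR adjusted p = 0.0800).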
